A study of Mus musculus with 12 samples.

Results

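The endothelial nuclei of the newborn mouse forebrain were 661 of 101802 nuclei (0.649%) that passed the quality filter in 12 single-nucleus libraries, 319 from WT and 342 from Het animals. A nucleus was selected on measured values. It had 800 to 6000 UMIs (unique molecular identifiers, each standing for 1 captured RNA molecule), 300 to 3000 detected genes and at most 1% of its UMIs from mitochondrial genes. It also had 4 or more UMIs summed over Flt1, Mecom, Cldn5, Kdr, Tek and Slco1a4, at least 2 of these genes detected, and at most 1 UMI summed over the mural cell genes Pdgfrb, Rgs5, Abcc9 and Notch3. The library was the unit of every comparison between genotypes.

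Each library held the forebrain nuclei of 1 postnatal day 1 (P1) mouse. The 8 WT libraries came from 5 male (WT 1 to WT 5) and 3 female animals (WT 6 to WT 8), and the 4 Het libraries came from 3 male animals (Het 1 to Het 3) and 1 female animal (Het 4). Het animals carried 1 copy of the Myt1l S710fsX frameshift allele of the line C57BL/6-Myt1l em1Jdd/J, and WT animals were from the same breeding of Hets to C57BL/6J mice. The allele is a germline mutation present in all cells, homozygotes do not survive birth, and the litter of each animal was not given in the sources used here. MYT1L is a transcription factor of neurons, and the comparison asked here is whether vascular nuclei of the same brains differed between genotypes.

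Endothelial cells line the blood vessels. In the brain they form the blood-brain barrier: tight junctions seal the gaps between neighbouring cells, transporters carry glucose, amino acids, hormones and iron across them, and efflux pumps return many drugs to the blood. Wnt ligands from neural cells, VEGF, Notch and TGF-beta signals shape these vessels, which are still sprouting around birth, and mural cells (pericytes and smooth muscle cells) share their basement membrane.

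The 12 matrices held 126684 barcodes, with 15439429 to 40784144 UMIs and 4799 to 11750 filtered nuclei per library, and 0 barcodes were shared between libraries. The endothelial nuclei of a library summed to between 13993 UMIs (WT 6, 8 nuclei) and 253639 UMIs (Het 1, 138 nuclei), so that 1 UMI was worth 71.5 CPM in the shallowest library and 3.94 CPM in the deepest. WT 1, WT 3, WT 6 and WT 8 had under 20 endothelial nuclei each, and their values are the least precise ones given here. Levels are given in CPM, the UMIs of a gene in the summed nuclei per 1000000 UMIs of all genes in them. The sex labels held in all libraries, since Xist, the RNA of the inactive X chromosome, was at 0 to 6.32 CPM in the endothelial nuclei of 8 male libraries and at 564 to 929 in those of 4 female libraries.

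Myt1l itself was low in endothelial nuclei and was not lower in Hets. Its level was 104 at the lowest, 456 at the median and 849 CPM at the highest of the WT libraries, and 623, 556, 537 and 449 in Het 1 to Het 4. The WT range held all 4 Het values, and the log2 fold change of Het over WT was 0.18 (SE 0.28, adjusted p = 0.99952, edgeR quasi-likelihood test with Benjamini-Hochberg adjustment). In the other 101141 nuclei Myt1l was at 1429 ± 108 CPM in 8 WT libraries and at 1575 ± 51.9 CPM in 4 Het libraries (mean ± SD). A count over the whole gene does not read the frameshift, so these levels do not check the genotype labels, which were taken as given. One passage of the study's text gives the group sizes at this age the other way round from the labels, its methods and its figure legend, and the labels were used. Within the selected nuclei, Myt1l had a UMI in 13.1% of the 464 nuclei with under 20 UMIs of a 14-gene neuron list and in 82.7% of the 197 nuclei with 20 or more. Myt1l is itself in that list, and 78.9% of the other 101141 nuclei had a Myt1l UMI.

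The selected nuclei carried the RNAs that define brain endothelium. Flt1 and Kdr (VEGF receptors) were detected in 83.4% and 73.2% of the 661 nuclei, Mecom (a transcription factor) in 88.8%, Tek (the angiopoietin receptor) in 61.3%, Cldn5 (the tight junction claudin) in 33.0% and Slco1a4 (an organic anion transporter) in 17.2%. In the 100498 nuclei that did not reach the required UMIs or the required number of these genes, they were detected in 0.995%, 0.584%, 1.65%, 0.740%, 0.268% and 0.572%. These 6 genes chose the nuclei, so their levels describe the choice. When each was left out of the choice in turn, its level in the nuclei chosen by the remaining 5 was 24.2 (Slco1a4) to 87.0 (Mecom) times that in all other nuclei. The 26 genes of an endothelial identity list that the choice did not use (Pecam1, Cdh5, Erg, Emcn, Eng, Esam and others) summed to 6607 CPM against 122 in the other 101141 nuclei, and 26 of 26 were higher.

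The limits of the choice cut through a gradient. The 64 nuclei just inside, with 4 to under 5 UMIs, had 2691 CPM of the identity list and an identity UMI in 79.7% of nuclei. The 65 nuclei just outside, with 3 to under 4 UMIs, had 961 CPM and an identity UMI in 49.2%. Nuclei with 8 or more of the choosing UMIs numbered 411 of 661.

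The limit on mural RNA left out 643 of the 1304 marker-positive nuclei (49.3%), where marker-positive means 4 or more UMIs of the 6 genes from at least 2 of them. These left-out nuclei had more RNA, with a median of 2593 UMIs against 1517 in the selected ones, and a higher identity list level of 9068 CPM. Mural genes outside the choice, such as Ebf1, Mcam and Vtn, summed to 3764 CPM in the left-out nuclei, to 1252 in the selected nuclei and to 8697 in 227 mural nuclei chosen by the mirrored rule. The 661 nuclei are therefore the marker-positive nuclei with little pericyte RNA, not all nuclei with endothelial RNA.

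A small group went against the endothelial label. Choroid plexus epithelium, the secretory layer that makes cerebrospinal fluid, is marked by Ttr (transthyretin), Htr2c (a serotonin receptor), Enpp2, Folr1, Clic6, Kl and Otx2. Of the 661 nuclei, 62 (9.38%) carried 4 or more UMIs of these 7 genes, with a median of 57.75. In 38 of the 62, no UMI of the 26 identity genes was present, Mecom was detected in 100% and Slco1a4 in 94.7%, while Flt1 was detected in 2.63% and Cldn5 and Tek had 0 UMIs. In the other 599 nuclei the median was 13 identity UMIs, and 3 had none. The 62 nuclei summed to 27995 CPM of the choroid list and the 599 to 297, against 142 in the 100498 nuclei that were not marker-positive.

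These 62 nuclei were unevenly spread over libraries. Het 2 held 24 of its 100 endothelial nuclei, WT 7 held 12 of 71, WT 2 held 8 of 90, Het 3 held 8 of 56 and Het 1 held 5 of 138. WT 1 held 2, WT 3, WT 4 and WT 5 held 1 each, and WT 6, WT 8 and Het 4 held 0. Without these nuclei the Het 2 level of the identity list was 7550 in place of 5312 CPM, and the genotype fit, the endothelial share and the ratio to mural nuclei are given both ways below. The 661 nuclei are called endothelial below by the rule alone, and the 38 without identity RNA remain in the summed levels unless their removal is stated.

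**Figure D1:**
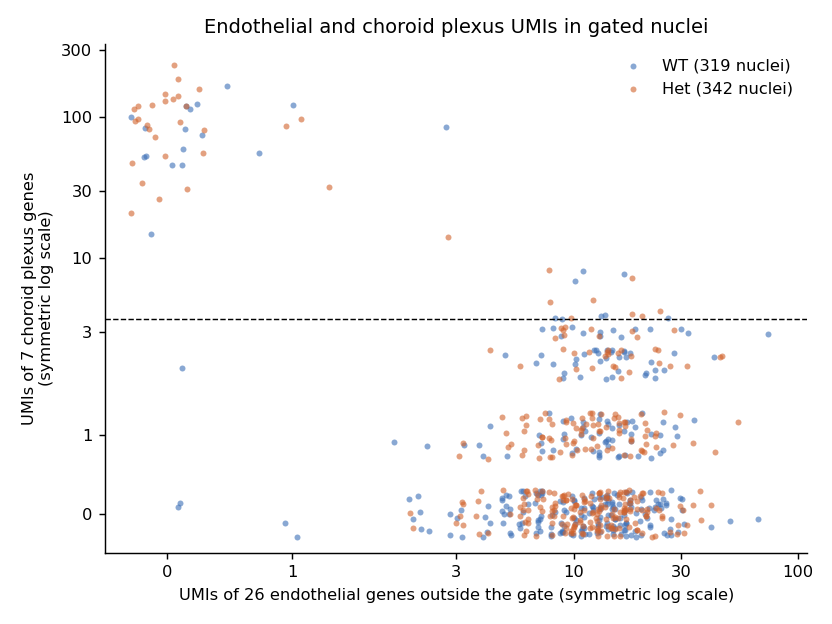
Each point is 1 of the 661 selected nuclei (blue, WT; orange, Het), with its UMIs of 26 endothelial identity genes on the horizontal axis and its UMIs of 7 choroid plexus genes on the vertical axis, both on symmetric log scales with points shifted slightly at random. Of the 62 nuclei above the dashed line (4 or more choroid UMIs), 38 sit at 0 endothelial UMIs at the upper left, while most of the other 599 lie at the lower right around 13 endothelial UMIs.

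Neuron markers had the highest summed level among the lists of other cell types. The 14-gene neuron list (Rbfox1, Csmd1, Snap25 and others) summed to 11437 CPM in the endothelial nuclei against 30101 in the other 101141, and 0 of 14 members were higher in the endothelial nuclei. Nuclei with 20 or more neuron UMIs numbered 197 of 661 (29.8%). These had a median of 2868 UMIs against 1294 in the other 464, an identity level of 3331 against 9487 CPM, and 36% of them against 1.72% were marked as likely doublets, 2 nuclei under 1 barcode. The neuron level did not differ detectably between genotypes, with a WT mean of 11243 ± 4124 CPM (SD, n = 8) and a Het mean of 11164 ± 435 CPM (SD, n = 4). Its two-sided exact permutation p was 0.978, also after adjustment. The part of neuron RNA, free or from doublets, in the gene levels given below was not tested.

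Markers of other cell types were mostly low. The astroglia and radial glia list was at 972 CPM against 1917 in the other nuclei, the oligodendrocyte lineage list at 333 against 706, and the fibroblast list at 289 against 307. The microglia and macrophage list was at 154 against 66.0, of which Inpp5d, a lipid phosphatase, gave 81.5, while the microglial receptor gene Csf1r had 7 UMIs in all 661 nuclei. The 8-gene erythroid list was at 27.5 against 9.01 CPM, with 3 members at 0 UMIs. The 4 mural genes of the choice were at 99.6 against 57.9, and at 4887 in the mural nuclei. Their levels in the selected and the mural nuclei were set by the rules of choice. Mural genes outside the choice summed to a higher level than in other nuclei, at 1252 against 538 CPM. Of the lymphatic list, at 362 against 468 with 210 of it from Reln, the lymphatic regulator Prox1 had 7 UMIs and the hyaluronan receptor Lyve1 had 6.

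The endothelial share of nuclei varied widely between animals of the same genotype. It was 0.126% at the lowest, 0.437% at the median and 1.23% at the highest of the WT libraries, and 1.26%, 0.932%, 0.477% and 0.544% in Het 1 to Het 4. The 95% Wilson intervals, which cover counting error only, ran from 0.0640% to 0.249% in WT 6 and from 1.00% to 1.51% in WT 2, so the spread among WT animals was larger than counting error. The mean share was 0.538% ± 0.413 (SD, n = 8) for WT and 0.803% ± 0.364 (SD, n = 4) for Hets, and the difference of 0.264 percentage points was smaller than the spread in either group (two-sided exact permutation p = 0.295, Benjamini-Hochberg adjusted p = 0.492 over the 5 values compared per library). The smallest p this design allows is 0.00404. Without Het 1 the difference was 0.112. It was 0.217 without the choroid-marked nuclei.

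**Figure D2:**
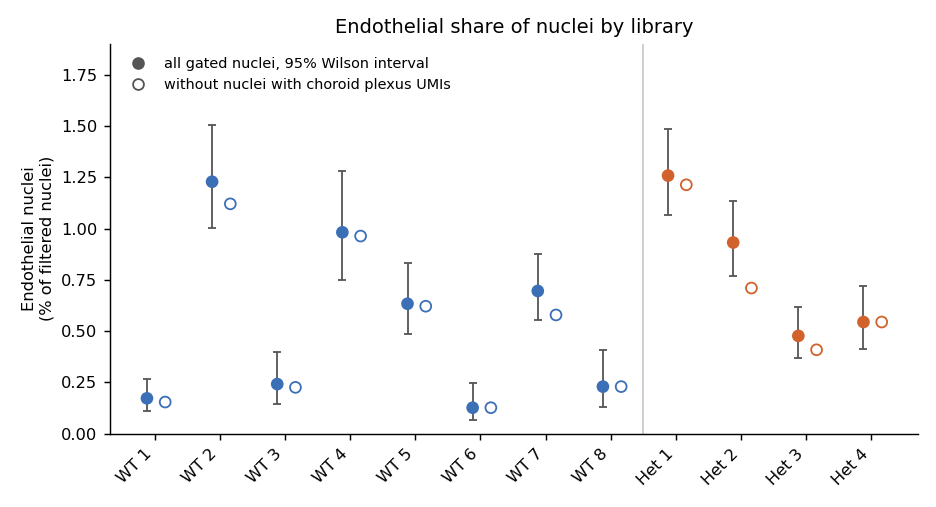
Filled circles give the endothelial share of filtered nuclei in each of the 8 WT (blue) and 4 Het (orange) libraries, with 95% Wilson intervals as bars, and open circles the share without nuclei that carried 4 or more choroid plexus UMIs. The WT libraries span 0.126% to 1.23% and the Het libraries 0.477% to 1.26%, so the groups overlap.

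Endothelial nuclei per mural nucleus, a ratio within each library, did not separate the genotypes either. The ratio was 1.67 at the lowest, 2.40 at the median and 3.71 at the highest in WT, with a mean of 2.57 ± 0.787 (SD, n = 8) against 3.43 ± 1.15 (SD, n = 4) in Hets (two-sided exact permutation p = 0.158, adjusted p = 0.492). Het 3 had the lowest Het ratio of 1.81, and without it the difference was 1.4 in place of 0.862 (exact permutation p = 0.0364, not adjusted). Without the choroid-marked nuclei it was 0.637 (exact permutation p = 0.279). The UMI number per endothelial nucleus differed by less than its spread, with a median UMI number of 1573 ± 208 (SD, n = 8) for WT and 1583 ± 158 (SD, n = 4) for Hets (two-sided exact permutation p = 0.941, adjusted p = 0.978).

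Beyond the genes of the choice, the 20 genes with the largest ratio to other nuclei ran from 111 to 63.0 times their level there. All 20 are named here by one rule, the ratio of summed levels among genes with at least 100 endothelial UMIs, and no test was made because the nuclei were chosen on correlated genes. Egfl7, a secreted vessel matrix protein, led with 520 against 4.68 CPM, a ratio of 111. It hosts Mir126a in an intron on its own strand and overlaps Agpat2 on the other strand, so its reads may include theirs. Next came Ushbp1 (ratio 88.3), Adgrl4 (88.0), an adhesion G protein-coupled receptor of vessels, Zfp366 (86.3), Dipk2b (85.5) and Cyyr1 (85.3). The endothelial nitric oxide synthase Nos3 had a ratio of 84.3, the orphan receptor of the angiopoietin pathway Tie1 79.7, the transcription factors Sox17 and Fli1 79.6 and 73.5, the drug efflux pump Abcb1a 75.5, the guidance receptor Robo4 69.0 and the VEGF-C receptor Flt4 65.2. Clec1a, Rassf9, Arap3, Adgrf5, Ly75, Ccm2l and Icam1 completed the list with ratios of 63.0 to 80.0. Without the library that held most of their UMIs, 5 of the 20 (Clec1a, Sox17, Flt4, Ccm2l and Icam1) would have under 100 UMIs.

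These genes were higher in endothelial than in other nuclei in 9 to 12 of 12 libraries, and the libraries that were not higher had no UMI of the gene. Egfl7 was at 286 at the lowest, 541 at the median and 965 CPM at the highest of the WT libraries, and at 554, 313, 509 and 479 in Het 1 to Het 4, so the Het values lay inside the WT range. In mural nuclei 17 of the 20 were at 10.4 CPM or less, and Arap3, Fli1 and Adgrf5 at 75.7, 91.4 and 110. Without the 62 choroid-marked nuclei, 19 of the 20 stayed in the list.

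**Figure D3:**
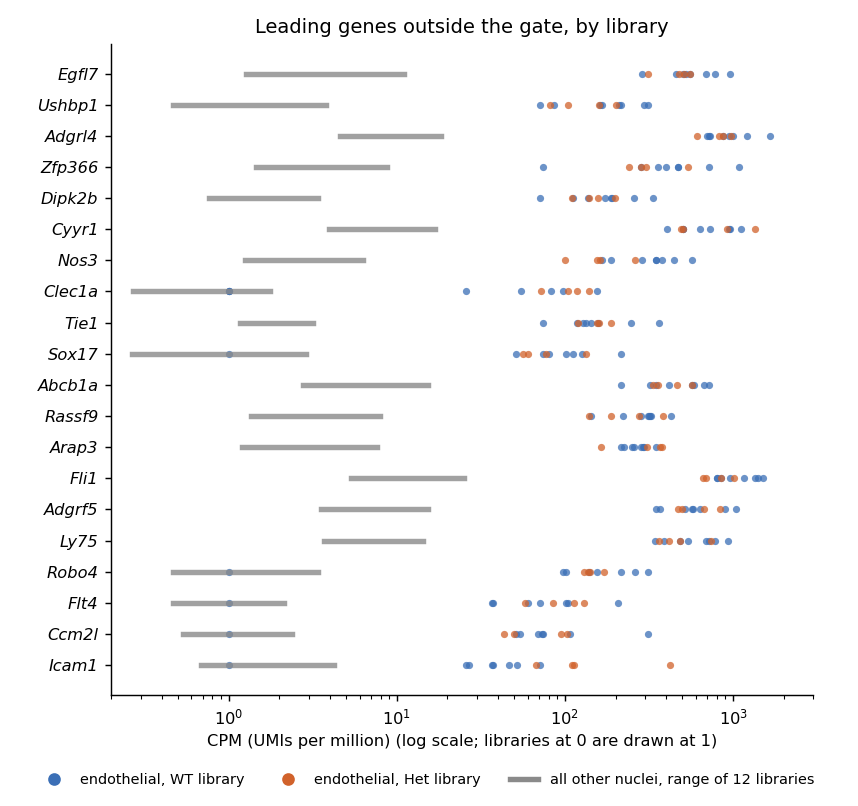
Levels of the 20 leading genes outside the choice, in CPM on a log scale, for the endothelial nuclei of each WT (blue) and Het (orange) library, with the range over 12 libraries in all other nuclei as grey bars. Points of libraries with no UMI are drawn at 1, and the WT and Het ranges overlap for each gene, although 3 of 4 Hets lie below every WT library for Nos3 (99.8 to 161) and above every WT library for Icam1 (111 to 419).

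Promoter sequence was at hand for 12 of these 20 genes (RefSeq, GRCm38.p6, 250 bases before to 50 after a transcript start, the first start listed per gene). In 7 of the 12 that start lay within 75 bases of the GENCODE gene start used for positions here. It lay 212 bases (Tie1), 416 bases (Flt4), 1069 bases (Egfl7) and 3024 bases (Cyyr1) inside the gene and, for Abcb1a, 92986 bases before it, so these 5 windows do not lie at the GENCODE gene start. ETS factors such as Fli1, Erg and Ets1, which drive endothelial genes, recognise the core GGAA (TTCC on the other strand), and the windows of the 3 genes with the largest ratio are shown, 5′ to 3′ along the gene, with each GGAA or TTCC in capitals. The Egfl7 window was chr2:26580833-26581132 on the plus strand, that of Ushbp1 chr8:71395752-71396051 on the minus strand, and that of Adgrl4 chr3:151437632-151437931 on the plus strand.
Egfl7: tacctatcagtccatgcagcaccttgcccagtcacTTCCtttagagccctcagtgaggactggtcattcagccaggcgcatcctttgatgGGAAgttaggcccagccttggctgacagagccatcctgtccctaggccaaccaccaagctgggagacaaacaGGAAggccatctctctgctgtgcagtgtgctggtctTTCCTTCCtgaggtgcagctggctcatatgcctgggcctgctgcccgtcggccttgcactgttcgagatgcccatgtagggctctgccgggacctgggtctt
Ushbp1: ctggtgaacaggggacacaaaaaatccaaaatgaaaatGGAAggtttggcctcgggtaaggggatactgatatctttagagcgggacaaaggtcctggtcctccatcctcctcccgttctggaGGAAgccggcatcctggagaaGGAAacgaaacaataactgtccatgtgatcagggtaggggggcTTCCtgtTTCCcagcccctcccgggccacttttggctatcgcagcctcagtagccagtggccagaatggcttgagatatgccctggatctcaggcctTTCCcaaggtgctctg
Adgrl4: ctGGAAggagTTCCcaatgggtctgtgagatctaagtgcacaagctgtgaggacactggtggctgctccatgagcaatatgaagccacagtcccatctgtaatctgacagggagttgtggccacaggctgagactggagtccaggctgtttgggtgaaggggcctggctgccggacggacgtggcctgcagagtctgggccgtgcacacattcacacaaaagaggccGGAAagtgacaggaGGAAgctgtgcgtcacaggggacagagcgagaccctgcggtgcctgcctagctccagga

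The 3 windows held 5, 6 and 4 copies of the core, counting both strands. At least 1 copy was present in 12 of 12 leading promoters and in 95.9% of 27025 promoters, so its presence does not set these genes apart. At least 4 copies were present in 10 of 12 against 46.3% of all promoters, with a median of 5 against 3 copies. The longer ETS form AACAGGAA (TTCCTGTT on the other strand), which contains the core, was found in 2 of 12 against 2.58% of all, and CAGGAAGT (ACTTCCTG) in 0 of 12 against 3.38%. A match describes the letters and is not evidence of binding.

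Blood-brain barrier transporters stood well above their level in other nuclei. The 32 listed genes summed to 11988 CPM against 1059 in other nuclei, and 29 of 32 were higher. The thyroid hormone transporter Slco1c1 was at 2068 against 66.9, the cationic amino acid transporter Slc7a1 at 1312 against 50.1, the reelin and apolipoprotein E receptor Lrp8 at 1116 against 169, and the transferrin receptor Tfrc at 859 against 49.6. The summed list was at 9270 at the lowest, 12511 at the median and 17973 at the highest in WT, and 15052, 11377, 9686 and 8793 in Het 1 to Het 4. Het 3 and Het 4 sat near the low end of WT, and Het 4 below it. Without the choroid-marked nuclei the Het values were 15328, 14757, 10746 and 8793 and the WT values 9490 to 17973.

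Junction genes were expressed at 7332 CPM against 2750 for the 24-gene list, with 22 of 24 higher. The tight junction scaffold Tjp1 (ZO-1) was at 1330 against 267, and Magi1, Magi3 and Cdh2 (N-cadherin), which neural cells also use, were 1.38 to 2.28 times their level in other nuclei. The caveolae and permeability list was low at 643 against 210 CPM. Cav1, the coat protein of caveolae, was at 68.1 against 9.03 and its partner Cavin1 at 65.0 against 3.43.

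Receptors, ligands and targets of vessel signalling were read by list. The VEGF and angiopoietin list of 26 genes was at 3521 against 820 CPM, and 2 members (the ligand Pgf and the adaptor Sh2d2a) had 0 UMIs. Ptprb, the phosphatase that restrains TIE2, was at 907 against 18, the co-receptor Nrp1 at 506 against 165 and the endocytic adaptor Dab2 at 357 against 41.8. The Wnt and beta-catenin list was at 3829 against 723, with 23 of 28 members higher. Its targets Apcdd1 and Lef1 were at 759 against 30.8 and 399 against 12.9, and the nuclear receptor Ppard at 286 against 14.7.

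The Notch list was at 2772 against 1029 CPM, led by the coactivators Maml2 and Maml3 and the receptor-cleaving protease Adam10, and the receptor Notch1 was at 166 against 28.5. Mural nuclei were at 2642 CPM for the Notch list, so its level was not particular to endothelium. The BMP and TGF-beta list was at 2847 against 1480, and at 2020 in mural nuclei. In it, the co-receptor Eng was at 281 against 4.58 and the receptor Tgfbr2 at 214 against 9.19, while Tgfbr1 was lower than in other nuclei, at 192 against 256. The list of endothelial transcription factors and related genes such as Heg1 and Lmo2 summed to 10014 against 4167, with 32 of 34 higher. Foxp1 and Mef2c are also neuronal factors, and Mef2c was lower in endothelial nuclei, at 871 against 1767.

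Basement membrane genes were at 7181 against 987 CPM, with 27 of 30 higher. Laminin alpha 4 (Lama4) was at 937 against 49.2, fibronectin (Fn1) at 698 against 46.6, Sparc at 668 against 35.9 and Igfbp7 at 548 against 9.92. Mural nuclei reached 8493 CPM for the same list, so these genes were not particular to endothelium. WT 8, with 11 nuclei, was at 13726, while the other WT libraries were at 5495 to 8585.

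Vessel type markers were thinly covered. The arterial list summed to 1829 against 1922 CPM, a level set by Arl15, Cdh13 and Stmn2, which neurons express, and the arterial gene Gkn3 had 0 UMIs. The venous list was at 1661 against 490, with Vwf (von Willebrand factor) at 242 against 4.11 and the apelin receptor Aplnr at 147 against 2.52. The tip cell and angiogenic list was at 2359 against 279, and at 2516 CPM in mural nuclei, with Col4a1 at 524 against 54.1 and Cd93, a receptor of angiogenic endothelium, at 431 against 7.83. The tip cell genes Kcne3 and Pgf had 0 UMIs.

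Some nuclei carried cell cycle RNA. The 28-gene cell cycle list was at 1394 against 527 CPM, the proliferation marker Mki67 at 100 against 20.9 and topoisomerase Top2a at 99.8 against 22.1. The share of endothelial nuclei with 2 or more UMIs of the list was 20% at the lowest, 33.4% at the median and 64.2% at the highest (WT 4) of the WT libraries, and 30.4%, 20%, 35.7% and 20.8% in Het 1 to Het 4. The same share in other nuclei was 19.8% to 24.2%. Those nuclei were not chosen as non-dividing and were deeper, with a median of 2003 against 1517 UMIs, so their share is no measured background. The mean for endothelial nuclei was 35.0% ± 14.2 (SD, n = 8) for WT and 26.7% ± 7.63 (SD, n = 4) for Hets (two-sided exact permutation p = 0.283, adjusted p = 0.492). The difference of −8.24 percentage points was −5.79 with each nucleus thinned to 800 UMIs and −4.07 without WT 4. Without the 4 libraries of under 20 nuclei it was −15.0.

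No tested gene differed between genotypes in endothelial nuclei past the threshold. Counts were summed per library and 2903 genes were tested with edgeR (threshold: adjusted p under 0.05 and 0.2 or more in size on the log2 scale). This called 0 genes (0% called), with 90 genes (3.1%) at an unadjusted p under 0.05, of which 50 were higher in Hets, and DESeq2 called 0 with 64 at that level. The smallest edgeR adjusted p was 0.99952, and the median log2 fold change was 0.02 with a median SE of 0.29. The term that compares the genotype difference in endothelial nuclei with that in all other nuclei of the same libraries called 0 of 2903 genes (0% called), with 80 (2.76%) at an unadjusted p under 0.05. Without the choroid-marked nuclei, 0 of 2826 genes were called. A missing call does not show that a gene was equal in the genotypes.

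The 10 genes with the smallest p whose sign held with each library left out are given as values, each with an edgeR adjusted p of 0.99952. Lhfpl3, a gene of the oligodendrocyte lineage list, was at 104 at the lowest, 148 at the median and 247 CPM at the highest in WT and at 474, 214, 217 and 302 in Het 1 to Het 4, a log2 fold change of 0.89 (SE 0.26). It was below its level of 613 in other nuclei, the groups overlapped, and over all deposited barcodes its value turned to −0.36. Lmntd1 was at 129, 148 and 297 (lowest, median and highest) in WT and at 98.6, 89.1, 75.4 and 59.9 in Hets, a log2 fold change of −0.86 (SE 0.25). Marf1, a regulator of RNA decay, was at 111, 152 and 286 in WT and at 94.6, 91.5, 65.9 and 69.9 in Hets (−0.81, SE 0.24). Neither gene's groups overlapped, but both genes were picked by their p, so this is no separate observation. The share of all tested genes without overlap was not counted. Lmntd1 was 15.5 times its level in other nuclei.

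Of the remaining 7, Zfp423, a zinc finger factor, had a log2 fold change of −0.77 and Neil3, a DNA glycosylase of dividing cells, one of −1.65. Crebzf, the small GTPase activator Rapgef6, the X-linked histone demethylase Kdm6a and the protocadherin Pcdh11x had values of 1.12, 0.69, 0.66 and 1.19, and that of Pcdh11x turned to −0.12 over all deposited barcodes. Gm47283 was at 45.8 at the lowest, 314 at the median and 1262 at the highest in WT and at 1306, 1062, 1234 and 1464 in Hets (1.53, SE 0.50). The annotation places it on chromosome Y, 90784738 to 90816464 of GRCm38, yet the female library Het 4 had the highest level and the female WT libraries had 143 to 922, so reads of a near-identical copy elsewhere may be counted with it. It was also higher in other nuclei of Hets, at 891 to 1180 against 94.7 to 737 in WT, and the difference between nucleus types was not past the threshold (interaction adjusted p in edgeR 0.99998).

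Among the choosing genes, Tek had the largest genotype value. It was at 609 at the lowest, 851 at the median and 1000 CPM at the highest in WT and at 761, 349, 612 and 379 in Het 1 to Het 4, a log2 fold change of −0.58 (SE 0.23) that is a description, since Tek chose the nuclei. Het 2 and Het 4 lay below the WT range. Tek was at 189 CPM in the 62 choroid-marked nuclei and at 721 in the other 599. Het 2 held 24 of these 62 nuclei and Het 4 held 0, and their part in the Tek values was not tested. Flt1, Mecom, Cldn5 and Kdr had values between −0.09 and 0.12, and Slco1a4 was at 0.44 (SE 0.42) and at 0.23 without the choroid-marked nuclei.

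The gene lists are read against all 2903 tested genes, of which 3.1% had an unadjusted p under 0.05 and 52.3% were higher in Hets, with a median log2 fold change of 0.02. In the identity list 20 of 26 members were tested, 7 were higher in Hets, 0 had an unadjusted p under 0.05 and the median was −0.10. For the barrier transporters 26 of 32 were tested with 12 higher, 0 at that p and a median of −0.03. For junctions 17 were tested with 6 higher, 1 at that p (Pard3, a polarity protein, 0.53, SE 0.20) and a median of −0.10. None of these members was called.

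In the VEGF and angiopoietin list 11 were tested, 5 were higher and 2 had an unadjusted p under 0.05. Nos3, the source of vascular nitric oxide, was at 167 at the lowest, 349 at the median and 570 CPM at the highest in WT and at 260, 154, 161 and 99.8 in Hets (−0.80, SE 0.29). Het 2, Het 3 and Het 4 lay below the WT range. The Nos3 value was −0.43 with no mural exclusion. It was −0.72 without choroid-marked nuclei and −0.87 without choroid-marked and neuron-marked nuclei. The semaphorin and VEGF-C co-receptor Nrp2 was at −0.88 (SE 0.39). The Wnt list (14 tested, 6 higher, median −0.05), the Notch list (7, 3 and −0.03) and the BMP and TGF-beta list (13, 5 and −0.01) had 0 members at that p.

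Of the transcription factor list 21 genes were tested, 11 were higher, the median was 0.01 and Ets1 had an unadjusted p under 0.05 (−0.51, SE 0.24). Of the basement membrane genes 19 were tested, 12 were higher, the median was 0.07 and Igfbp7 had such a p (0.66, SE 0.29). The tip cell list had 7 tested with 6 higher and a median of 0.14, and the venous list 5 tested with 3 higher and a median of 0.20. Only 3 arterial genes and 2 caveolar genes could be tested, none with such a p. A 9-gene list of Myt1l, its paralogs Myt1 and St18 and its repressor partners was at 958 CPM against 1797. Myt1l alone was at 539 against 1492, so this sum does not describe the partners. Of that list, Myt1l and Rcor1 could be tested.

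The cell cycle list leaned one way, with 7 of 7 tested members lower in Hets, a median of −0.78 and 1 member with an unadjusted p under 0.05 (the kinetochore protein Knl1, −1.68, SE 0.67). These genes are transcribed together in dividing cells, so the 7 values are not separate observations, and 0 were called. The list summed to 357 at the lowest, 1457 at the median and 3753 CPM at the highest (WT 4) in WT and to 1121, 585, 1699 and 1187 in Hets, inside the WT range. The mean difference of −468 CPM was −163 without WT 4 and −280 without Het 2. The median over the tested members was −0.20 without WT 4 (5 tested) and −0.46 without Het 2 (8 tested).

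**Figure D4:**
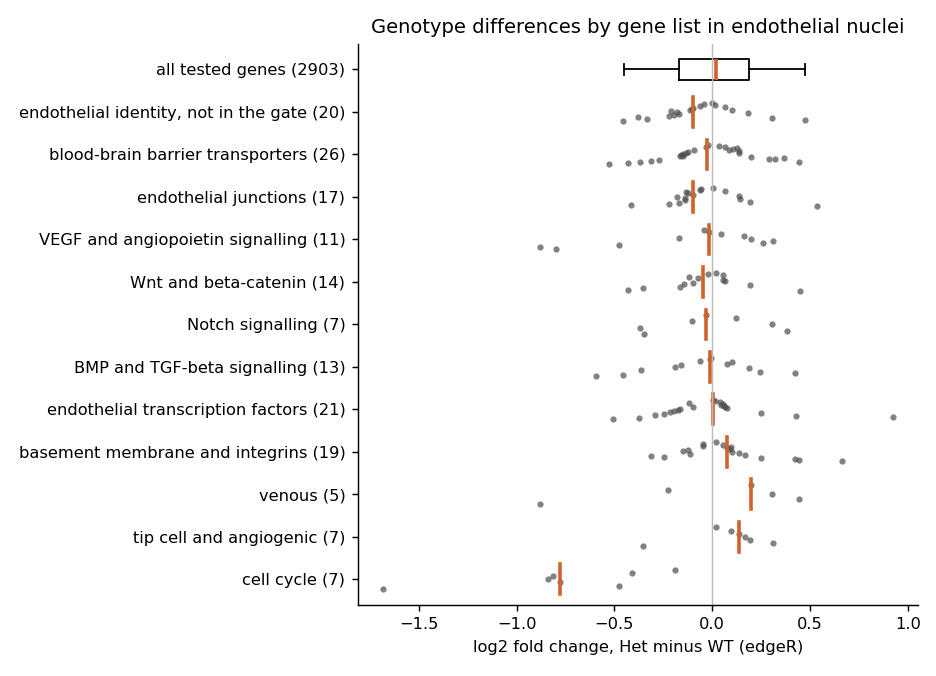
Points are the log2 fold changes (Het over WT, edgeR) of the tested members of each gene list with 5 or more tested members, with their number in brackets and the list's median as a vertical orange line. The box shows all 2903 tested genes with quartiles, median and the 5th to 95th percentile as whiskers. Most list medians lie between −0.10 and 0.20, near the overall 0.02, and the 7 cell cycle genes have a median of −0.78, with 0 genes called.

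Het 4, the female Het library, had the highest level of several genes that were singled out after their values were seen. They are no fixed list. The calls without the low-count filter given below include them and rest on the same counts, so those calls are no separate support. Icam1, a leukocyte adhesion receptor of activated endothelium and 1 of the 20 leading genes, was at 0 to 71.5 CPM in WT (0 to 7.33 UMIs), at 67.0, 111 and 113 in Het 1 to Het 3 and at 419 in Het 4. Icam1 did not pass the low-count filter of the main fit, so it was not tested there. In the fit without that filter its log2 fold change was 2.34 (SE 0.40). In Het 4 it was detected in 17 of 48 nuclei with 42 UMIs, and with 74.7 UMIs in the other 11 libraries it would miss the limit of 100 UMIs for leading genes without Het 4. Vcam1, another leukocyte receptor, was at 0 to 6.96 in WT, at 13.1, 33.7 and 9.42 in Het 1 to Het 3 and at 170 in Het 4. Het 4 was thus the highest library for both, and the values of Icam1 in Het 2 and Het 3 and of Vcam1 in all 4 Hets were also above those of every WT library. For Vcam1 these Het values rest on 3.33, 7, 1 and 17 UMIs and the WT values on at most 1, and 1 UMI was worth 26.8 to 71.5 CPM in WT 1, WT 3, WT 6 and WT 8, so the order of the low values is not resolved at this depth. Without the choroid-marked nuclei, Icam1 was at 162 in Het 2 and 134 in Het 3, above the WT values, whereas Vcam1 in Het 1 and Het 3 (5.48 and 0) fell inside the WT range of 0 to 6.94. P-selectin (Selp) was at 130 in Het 4 from 13 UMIs in 3 nuclei, and at 0 to 7.23 in the other 11 libraries, while E-selectin (Sele) had no UMI in Het 4.

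Lcn2, lipocalin 2, had 12 UMIs in 10 of 48 nuclei of Het 4 (120 CPM), 2 UMIs in Het 3 and none in the other 10 libraries. Cp, ceruloplasmin, was at 893 in Het 4 in 23 of 48 nuclei, against 0 to 82.1 in WT and 31.5, 53.0 and 94.2 in Het 1 to Het 3. Eln, elastin, was at 437 in Het 4 against 0 to 104 in WT, but its 43.8 UMIs came from 4 nuclei. Galnt18 was at 909 in Het 4 against 0 to 311 in WT. The venous list summed to 2889 in Het 4 against 1143 to 2350 in WT. It holds Icam1, Vcam1, Selp, Sele and Lcn2, so this sum counts the same genes again and is no separate observation.

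The marker-positive nuclei with over 1 mural UMI, which are separate nuclei of the same libraries, showed part of the pattern. Icam1 was at 393 CPM in Het 4 and at 0 to 43.7 in the other 11 libraries, and Cp at 274 against 28.6 to 158. Vcam1, however, was at 18.3 in Het 4 and at 25.0 in WT 2, and Galnt18 was at 320 in Het 4 and at 351 in Het 3. In the nuclei that were not marker-positive, Icam1 was at 0.686 to 1.63 in the other 11 libraries and at 2.07 in Het 4. Het 4 was also the highest library there for Cp (25.7), Lcn2 (0.304 from 6 UMIs) and Sele (0.114 from 2.25 UMIs). It was not the highest there for Vcam1 (8.14, with 10.2 in WT 8) or Selp (0.562, with 0.756 in WT 8). Nor was it for Eln (16.6, with 20.9 in Het 3) or Galnt18 (110, with 133 in WT 7). Het 4 held 0 choroid-marked nuclei, and its neuron list level of 11730 CPM lay inside the WT range of 5413 to 18594 CPM. The female WT libraries WT 6, WT 7 and WT 8 were at 71.5, 37.1 and 51.8 CPM for Icam1 and at 71.5, 13.9 and 51.8 for Cp, and had no Lcn2 UMI. Het 4 is the one female Het library, so its animal, its handling and the joining of its sex and genotype cannot be told apart.

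**Figure D5:**
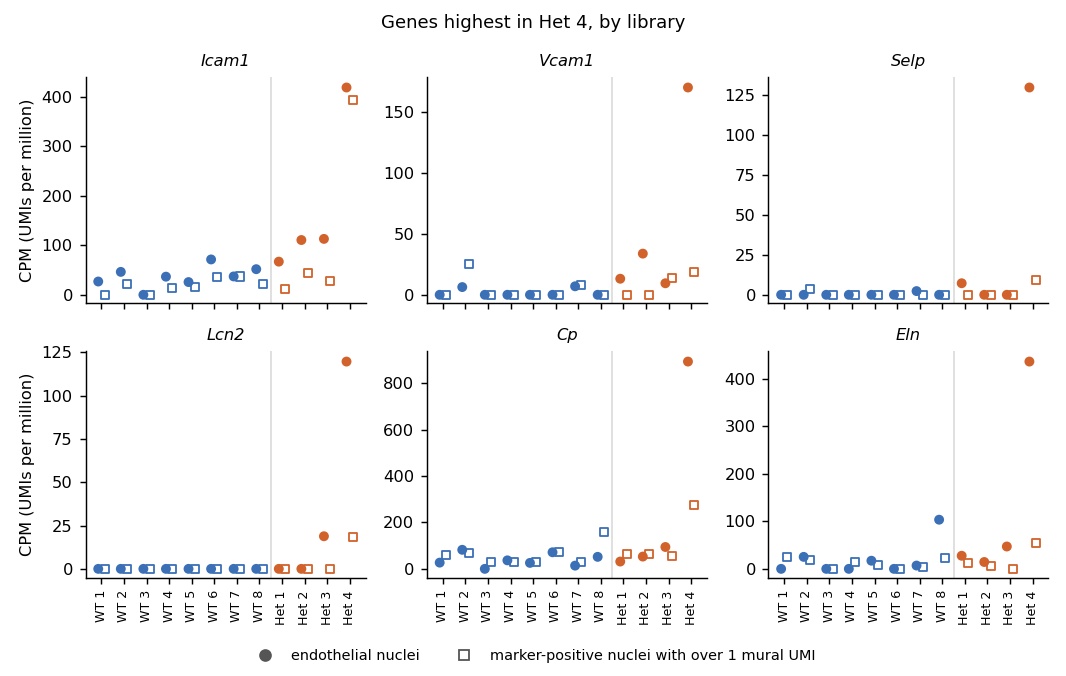
Levels of 6 genes in CPM in each library, in the selected endothelial nuclei (filled circles) and in the separate marker-positive nuclei with over 1 mural UMI (open squares), with WT in blue and Het in orange. Het 4 is the highest library for all 6 genes in the filled circles, from 120 (Lcn2) to 893 (Cp), and its open square is far above the others for Icam1 (393).

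Without the filter on low counts, edgeR called 20 of 20837 genes, 20 higher in Hets. The fit as a whole leaned the same way. Its median log2 fold change was 0.17, in place of 0.02 with the filter. Of its 1216 genes at an unadjusted p under 0.05, 906 were higher in Hets. The library with most UMIs was Het 4 for 8 of the 20 (Cp, Eln, Galnt18, Icam1, Lcn2, Selp, Spock3 and Vcam1), and it held 42.9% of their UMIs. It was Het 2 for 10 (Cfap44, Cfap54, Dcdc5, Htr2c, Rmst, Snhg11, Spag6l, Syne1, Ttr and Zbbx), which include the choroid plexus genes Ttr and Htr2c and genes of motile cilia, and it held 53.3% of their UMIs. Of the 4596 UMIs of these 10 genes, 90.8% came from the 62 choroid-marked nuclei. Htr2c gave 2764 and Ttr 875 of the 4596, and both genes were used to mark those nuclei. The 90.8% was thus largely set by the marking and is no separate observation. The share without Htr2c and Ttr was not tested. The remaining 2 of the 20 called genes were Gm47283 and Reln (reelin, a secreted neuronal protein), with most UMIs in Het 1.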

How the data were processed

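Forebrain nuclei of 12 P1 mice (8 WT, 4 Het) were fixed, barcoded by combinatorial indexing and sequenced. The authors mapped reads to mm10 with the ScaleRna pipeline and deposited 1 matrix per library of expected counts, UMIs per gene and barcode that need not be whole, with no normalization. Seurat 4.3.0 is named in the submitters' processing notes. Gene positions came from GENCODE on GRCm38.

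Nuclei were selected as described above. The members, gene lists and tests were chosen with earlier results of these data known. UMIs were summed per library over endothelial and over all other nuclei, rounded, and tested with edgeR 4.0.16 (quasi-likelihood, TMM, filterByExpr, ~ genotype, R 4.3.3), with DESeq2 1.42.0 and limma 3.58.1 as alternatives. The comparison of nucleus types had library as a term. Values per library were compared by exact permutation (scipy 1.17.1), adjusted over 5 values. Likely doublets were marked as the 5% of barcodes per library with most simulated doublet neighbours and removed only in an alternative. Methods were tested on simulated data.

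Genes named are the choosing genes, Myt1l, the 10 with smallest p whose sign held with each library left out, the 20 leading genes and up to 4 members per list with most UMIs. Others were chosen after their values were seen. Limits of 4 choroid and 20 neuron UMIs were set after the data were seen. Replicates are separate animals.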

Additional observations from a re-analysis of the deposited data

Results flagged for a closer look

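In 64 sets of values (5 values per library and the summed levels of the gene lists, in 8 WT or 4 Het libraries), the highest or lowest library lay far from the rest, by Dixon's 95% limit, in 6 (9.38%). For independent sets chance gives about 1 in 20. These sets share libraries and some genes, so no excess is read from the 9.38%.

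WT 8 was such a library in 5 lists. Its 11 endothelial nuclei held 19307 UMIs, so 1 UMI was worth 51.8 CPM. The basement membrane and integrin list was at 13726 CPM in WT 8, with 8585 in the next WT library, and the tip cell and angiogenic list at 5594, with 2908 in the next. The microglia and macrophage list was at 777 in WT 8 and 268 in the next library, and 466 of the 777 came from Mrc1, a macrophage receptor gene. The 4 mural genes of the choice were at 259, with 126 in the next library, and the erythroid list at 207, with 63.2 in the next. The joint presence of mural, macrophage and erythroid UMIs in these 11 nuclei was not tested as a source of the basement membrane and tip cell levels.

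In Het 1 the oligodendrocyte lineage list was at 565 CPM, with 341 in the next Het library, and 474 of it was Lhfpl3. The level of the same list in other nuclei was 603 to 867 over libraries.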

How the results depend on the processing

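No alternative made a library value or a gene summary pass its threshold except those given here, and the causes were not tested. Without the filter on low counts, 20 genes were called between genotypes and 1 (Eln) for the difference between nucleus types. The WT and Het animals share replicate numbers in the labels. The deviations of same-numbered libraries correlated at −0.126 (WT 1 and Het 1), 0.251 (WT 2 and Het 2), −0.026 (WT 3 and Het 3) and 0.032 (WT 6 and Het 4). WT 1, WT 3 and WT 6 had under 20 endothelial nuclei each, so these correlations cannot decide whether the numbers pair the animals. With the replicate block in the fit, 1 gene was called (Reln, log2 fold change 3.39). Without the block Reln was at 1.21 (edgeR unadjusted p = 0.026) and was not called. In paired differences the cell cycle share turned to 1.77 percentage points and the neuron level to 999.95 CPM.

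The difference in endothelial share (Het minus WT) was −0.0820 without libraries of under 20 nuclei, an alternative chosen after seeing the data that is no check of the share: it selects on the share's numerator and leaves out the 4 lowest WT shares, so it had to raise the WT mean. It was 0.432 with no mural exclusion, 0.146 without choroid-marked and neuron-marked nuclei and 0.112 to 0.373 with each library left out. The difference in endothelial nuclei per mural nucleus was 0.567 to 1.4 with each library left out, the latter without Het 3 (exact permutation p = 0.0364), 0.445 without choroid-marked and neuron-marked nuclei and 1.38 in paired differences. The cell cycle share difference was −11.2 to −4.07 with each library left out and −15.0 without libraries of under 20 nuclei. Both near-zero differences turned easily. That of median UMIs was −20.6 without marked doublets, −42.1 without choroid-marked and neuron-marked nuclei, −44.8 in males, −57.1 without libraries of under 20 nuclei, 26.9 to 88.6 under the other alternatives and −47.9 to 75.1 with each library left out. That of the neuron level was 125.6 with at least 6 choosing UMIs, 376 without choroid-marked nuclei, 182 without choroid-marked and neuron-marked nuclei, −1526 to −505 without marked doublets, in males or without libraries of under 20 nuclei, and −912 to 971 with each library left out. With each library left out, 0 genes were called in both comparisons.

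Of the named genes, Lhfpl3 turned to −0.36 and Pcdh11x to −0.12 over all deposited barcodes, and Gm47283 was called without the low-count filter (1.74). The 8 WT and 4 Het libraries with 8 to 138 nuclei gave a median SE of 0.29 on the log2 scale between genotypes.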
